A study of Mus musculus with 8 samples.

Results

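The 10 genes described here encode zinc-finger transcription factors of 4 families: Zfhx2, Zfhx3 and Zfhx4, Zeb1 and Zeb2, Tshz1, Tshz2 and Tshz3, and Zbtb18 and Zbtb20. They were chosen by name, as 10 of 21631 protein-coding genes with a unique symbol, and all 10 had a locus. A locus is the gene's span on GRCm38 (mm10) plus 10 kb on either side, and the values are the H3K4me peaks that lie over it. All 10 loci passed the filter on thin coverage used for the test, which kept 14941 loci.

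The mark was mapped by ChIP-seq in lysates of whole cortex from E15.5 mouse embryos. Control embryos (WT) were Prdm16 flox/flox with no Cre, so they carry the floxed alleles too. Mutant embryos (cKO) were Emx1Ires-Cre; Prdm16flox/flox, in which the recombinase is made in progenitors of the dorsal telencephalon, so cell types of other origin in the lysate keep Prdm16. There were 2 libraries per genotype, and the labels do not say how many embryos went into each, so p-values measure only the spread between these libraries. PRDM16 is a zinc-finger regulator of radial glia, and the comparison asks where the mark differs when it is absent.

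ZFHX proteins are very large and combine several homeodomains with many zinc fingers. ZEB proteins carry a zinc-finger cluster near each end, bind E-box sequences such as CACCTG, and repress epithelial genes. In the cortex ZEB2 acts in newborn neurons and shapes the timing of fates in the progenitors behind them. Teashirt (TSHZ) proteins are zinc-finger repressors related to a fly patterning gene. ZBTB proteins pair a BTB domain, which recruits corepressors, with DNA-binding zinc fingers. ZBTB18 represses proneural and Id genes as cortical neurons mature and binds the E-box-like letters CATCTG, and ZBTB20 acts in hippocampal and upper-layer neurons. Methylation of histone H3 lysine 4 marks enhancers and promoters with their flanks, and at genes of developmental regulators it often spreads over long domains. The labels name the mark only as H3K4me, without the degree of methylation, so no pattern at start sites was presumed.

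The lists held 66476 to 82683 peaks covering 114 to 166 Mb, more in both cKO libraries (148 and 166 Mb) than in both WT libraries (130 and 114 Mb). Read depth is unknown, and peak lists do not show whether Prdm16 was deleted. The median locus therefore differed by 0.35 between genotypes on the log2 scale (cKO minus WT), and by −0.038 once each library was centred on its own median, a shift of 0.384. Among marker loci of cortical progenitors and projection neurons, Pax6 had 66.3% of the locus under peaks, Emx1 56.8% and Eomes 56.3%. Marker lists of other cell types that the lysate could hold had medians of 21.5% (interneurons and ventral telencephalon), 7.26% (endothelium and pericytes), 5.02% (microglia), 4.19% (meninges) and 2.59% (red blood cells), beside 5.79% for all loci.

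The promoter windows in which the patterns at start sites can be read are shown first. RefSeq promoter sequence (250 bases before a start to 50 after it, GRCm38.p6) matched 7 of the 10 genes, with 14 windows. Zfhx4, Zeb1 and Tshz1 had none. The 4 windows below were chosen because the main start of Zbtb18 had no peak in any library, the Zfhx3 window lay whole under a peak in all 4, and the 2 Zeb2 windows were covered from end to end in both cKO libraries and in part or not at all in the WT libraries. Another Zeb2 window (45113204 to 45113503) had the same pattern but overlaps the second Zeb2 window below and is not printed. Each printed window is written 5′ to 3′ on the gene's strand. Capitals mark the CATCTG letters in Zbtb18 and, in Zeb2, the bases under a peak in at least 1 WT library.
Zbtb18, plus strand, chr1:177442101-177442400: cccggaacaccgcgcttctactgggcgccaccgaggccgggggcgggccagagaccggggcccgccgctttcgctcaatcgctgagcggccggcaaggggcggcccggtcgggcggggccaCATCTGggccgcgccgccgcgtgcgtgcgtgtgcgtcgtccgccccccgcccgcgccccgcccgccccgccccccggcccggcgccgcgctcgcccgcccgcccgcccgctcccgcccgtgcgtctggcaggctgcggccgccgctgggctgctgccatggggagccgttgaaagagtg
Zfhx3, plus strand, chr8:108714394-108714693: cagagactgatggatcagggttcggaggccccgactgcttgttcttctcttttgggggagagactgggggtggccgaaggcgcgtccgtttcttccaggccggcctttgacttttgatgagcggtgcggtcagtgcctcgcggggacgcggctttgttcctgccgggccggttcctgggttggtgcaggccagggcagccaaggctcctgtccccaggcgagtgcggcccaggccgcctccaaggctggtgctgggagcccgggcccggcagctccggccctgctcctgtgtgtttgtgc
Zeb2 first start, minus strand, chr2:45117393-45117692: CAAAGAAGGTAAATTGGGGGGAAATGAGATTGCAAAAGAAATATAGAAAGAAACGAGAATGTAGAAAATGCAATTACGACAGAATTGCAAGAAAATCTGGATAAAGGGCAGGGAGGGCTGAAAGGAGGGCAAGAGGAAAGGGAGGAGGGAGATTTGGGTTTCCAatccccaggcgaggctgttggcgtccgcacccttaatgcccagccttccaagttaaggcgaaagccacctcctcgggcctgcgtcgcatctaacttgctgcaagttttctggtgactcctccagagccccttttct
Zeb2 second start, minus strand, chr2:45113230-45113529: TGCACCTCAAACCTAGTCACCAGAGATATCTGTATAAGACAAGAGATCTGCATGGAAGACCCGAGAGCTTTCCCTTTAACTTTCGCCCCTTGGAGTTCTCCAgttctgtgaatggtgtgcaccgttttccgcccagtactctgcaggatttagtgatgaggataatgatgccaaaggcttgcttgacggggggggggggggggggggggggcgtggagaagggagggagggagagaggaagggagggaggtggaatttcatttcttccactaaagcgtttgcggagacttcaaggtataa

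The 10 loci covered a wide range of H3K4me coverage. Zfhx2 stood highest, with 83.1% ± 6.94 of its locus under peaks (SD, n = 4 libraries over both genotypes), and its lowest library (75.3%) lay above the highest value of any other member. Zeb2 (46.3% ± 7.22), Zbtb18 (40.7% ± 2.43), Tshz3 (39.3% ± 7.14) and Tshz1 (35.3% ± 5.12) followed. Within these 4, the libraries of each locus overlapped those of the next. A gap separated them from Zfhx4 (12.4% ± 1.26), Tshz2 (12.1% ± 2.67), Zfhx3 (12.02% ± 1.82) and Zbtb20 (11.3% ± 0.777), whose libraries again overlapped one another. Zeb1 was lowest at 4.60% ± 0.817, and its highest library (5.70%) lay under the lowest of Zbtb20 (10.6%). Zeb1 is also the only member below the median of all loci. The median over the 10 was 23.9%. Members of 1 family were spread over this range, and the 4 low loci are long genes of 198 to 759 kb.

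**Figure D1:**
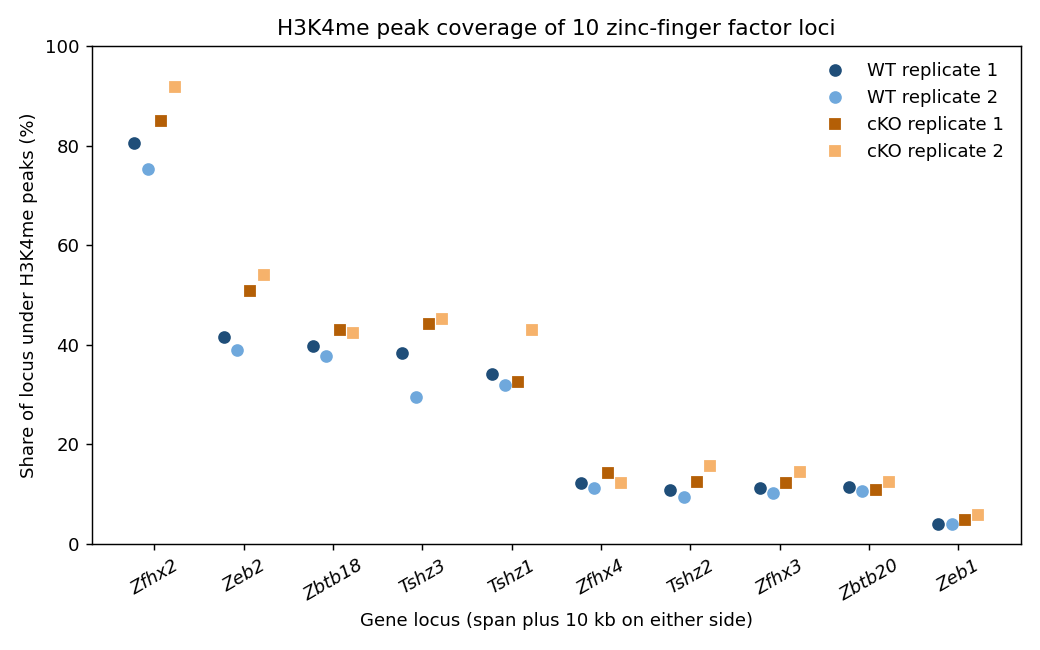
Share of each locus under H3K4me peaks (%, vertical axis) in each of the 4 libraries, with genes in order of their mean; circles are WT and squares are cKO. Zfhx2 lies between 75.3 and 91.7% in every library, a group of 4 lies between 29.5 and 54.0%, and Zeb1 stays under 5.70%.

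Among the ZFHX genes, Zfhx2 (gene at chromosome 14, 55060268 to 55092381, minus strand), which is expressed in differentiated neurons, ranked 5th in coverage among loci of at least 20 kb. Peaks covered 41.9 and 39.3 kb of its 52.1 kb locus in the WT libraries and 44.3 and 47.8 kb in the cKO libraries, so the genotypes did not overlap. With the gene divided into 10 equal segments numbered from its 5′ end, segments 2 to 5 and 10 were covered from end to end in all 4 libraries. Segment 8 differed most: 12.5 and 0% of it lay under peaks in WT, against 57.4 and 100% in cKO. In cKO replicate 2 a single peak of 47.8 kb ran across the gene, whereas the widest WT peaks spanned 17.1 and 16.4 kb. The span of the antisense gene Zfhx2os and the loci of Thtpa, Ap1g2 and Jph4 share these peaks, so the coverage cannot be assigned to Zfhx2 alone.

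Zfhx3 (chromosome 8, 108279311 to 108961636, plus strand), a regulator of neuronal differentiation and of circadian rhythm, carried 50 and 49 peaks in WT, against 49 and 59 in cKO. They covered 79.0 and 71.3 kb in WT, against 86.0 and 101 kb in cKO, again without overlap between the genotypes. Segment 7 of the gene, which holds the RefSeq start printed above, was the most covered (25.3% on average), and segment 6 the least (1.16%). The widest region covered in all 4 libraries was 4.32 kb inside the gene (108535137 to 108539452, over Gm39244), and it held the peak of highest fold enrichment (the authors' value for each peak) in WT replicate 2 (5.64) and cKO replicate 2 (7.24).

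Zfhx4 (chromosome 3, 5218218 to 5415861) had 26.6 and 24.3 kb under peaks in WT, against 30.9 and 26.6 kb in cKO, and here the genotypes overlapped. Counted from the lower coordinate, segment 1 of the gene was 44.6% covered and segments 3 to 5 held no peak in any library. Its peak of highest fold enrichment lay inside the gene in both WT libraries (5.03 and 4.52). In both cKO libraries it lay outside the gene over 2700069I18Rik (5.08 and 5.09).

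The ZEB pair stood far apart. Zeb2 (chromosome 2, 44983512 to 45117442, minus strand) had 63.9 and 59.9 kb under peaks in WT, against 78.1 and 83.2 kb in cKO. Both cKO libraries were above both WT libraries, with fewer peaks in cKO (13 and 11) than in WT (17 and 14). The median peak width at the locus was 2153 and 2774 bp in WT and 3837 and 7285 bp in cKO. Coverage was concentrated in the 5′ part of the gene: segment 2 was 94.2% covered on average, segments 9 and 10 only 4.12 and 5.67%. The segments with the widest gap between genotypes were segment 5 (52.01% in WT, 84.7% in cKO), segment 3 (48.2 and 79.2%) and segment 1 (48.8 and 78.5%). The widest region in all 4 libraries was 8.002 kb (45099876 to 45107877), centred 13.6 kb downstream of the gene's 5′ end. The antisense gene Zeb2os also lies in the locus.

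Zeb1 (chromosome 18, 5591327 to 5775468), which acts in neural progenitors, had only 8.07 and 8.17 kb under peaks in WT, against 9.69 and 11.6 kb in cKO. The cKO libraries were the higher ones, with 9 peaks each against 5 and 6. No peak lay in 6 of the 10 segments of the gene in any library. Its coverage stood between percentiles 43.1 and 49.3 of loci of at least 20 kb, where Zeb2 stood between 98.2 and 98.97. Only 31.6% of the bases under a peak in any library were under one in all 4, the lowest share of the 10 loci, against 57.1% at Zeb2.

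Of the TSHZ genes, Tshz1 (chromosome 18, 84011627 to 84087708), known for its role in olfactory bulb interneurons, had 32.7 and 30.6 kb under peaks in WT, against 31.1 and 41.2 kb in cKO. The genotypes overlapped, and cKO replicate 2 stood apart from the other 3 libraries. Its end at the higher coordinate was most covered (75.9% of segment 10) and segment 1, at the lower coordinate, held no peak in any library. The locus of Zadh2 shares these peaks.

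Tshz2 (chromosome 2, 169632509 to 170072751, plus strand), a gene of cortical projection neurons, had 50.2 and 43.6 kb in WT, against 56.8 and 72.3 kb in cKO. The number of peaks was also higher in cKO (32 and 43) than in WT (26 and 24). Peaks were spread thinly, with no segment of the gene above 20.3% on average and none empty.

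Tshz3 (chromosome 7, 36698118 to 36773553, plus strand), which acts in deep-layer projection neurons, had 36.5 and 28.2 kb in WT, against 42.1 and 43.0 kb in cKO. WT replicate 2 was the lowest. Segments 1 to 3 (75.5 to 82.7%) and 6 (84.97%) carried most of the coverage, and segments 8 and 9 held no peak in any library. A peak of 13.0, 12.8 and 16.3 kb ran from just past the start in WT replicate 1, cKO replicate 1 and cKO replicate 2, while the widest peak of WT replicate 2 was 6.46 kb.

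The ZBTB pair differed in length and layout. Zbtb18 (chromosome 1, 177442351 to 177450764, plus strand) had 11.3 and 10.7 kb under peaks in WT, against 12.2 and 12.01 kb in cKO, in 3 peaks in every library. Most of it lay outside the gene: 51.4% of the flanks were covered but 15.1% of the gene body. A peak of 12.4 to 12.9 kb began just past the gene's 3′ end in each library, between 177451140 and 177451266, and ran over Gm29856. It was the peak of highest fold enrichment at the locus in all 4 (6.97 and 4.91 in WT, 6.34 and 6.24 in cKO). Segments 1 to 5 of the gene held no peak in any library. Of the bases under a peak in any library, 82.5% were under one in all 4, the highest share of the 10 loci. Peak positions overlapped with a Jaccard index (shared bases over all bases) of 0.910 and 0.938 within genotypes and 0.876 to 0.891 between them.

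Zbtb20 (chromosome 16, 42875689 to 43634392, plus strand) had 88.9 and 82.8 kb under peaks in WT, against 84.9 and 96.5 kb in cKO, so the genotypes overlapped. It carried 42 and 43 peaks in WT, against 47 and 50 in cKO. Segments 9 and 10 of the gene were the most covered (36.7 and 24.5%), and segment 2 held no peak in any library. The peak of highest fold enrichment was at one place in all 4 libraries, near 43129856 to 43131296 (its bounds in WT replicate 1), with 6.40 and 5.29 in WT and 7.30 and 6.95 in cKO. Tigit, a gene of T cells, lies in the same locus.

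**Figure D2:**
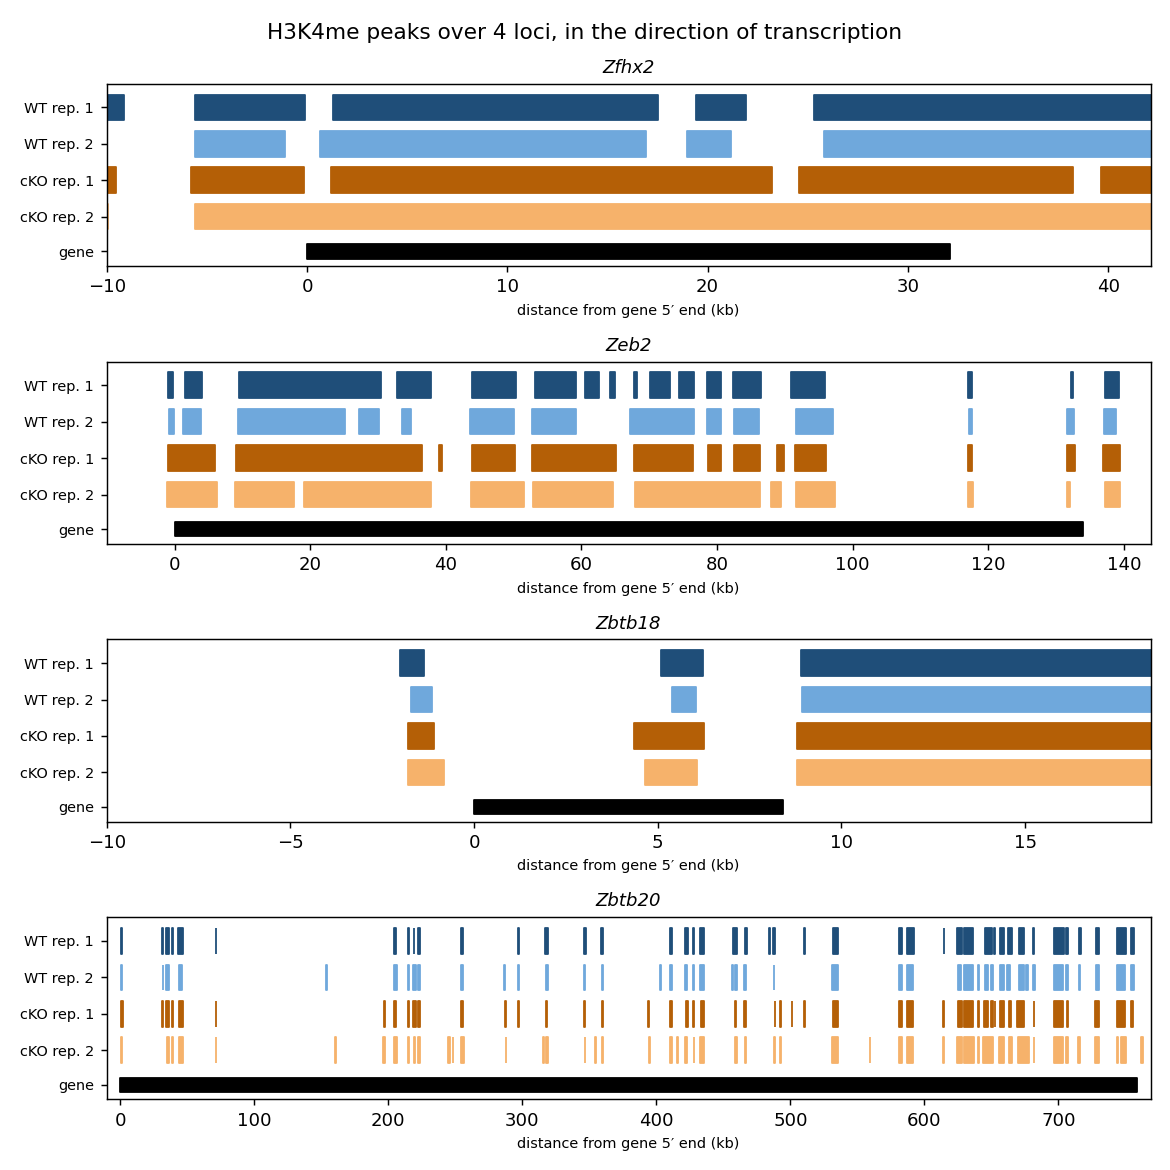
H3K4me peaks (bars) in the 4 libraries over Zfhx2, Zeb2, Zbtb18 and Zbtb20; the horizontal axis is distance from the gene's 5′ end in kb along the direction of transcription, and the black bar is the gene. Zfhx2 is nearly filled, with 1 peak across the gene in cKO replicate 2; Zeb2 is covered in its 5′ part; the long Zbtb18 peak lies beyond the gene's 3′ end; Zbtb20 is most covered toward its 3′ end.

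At the RefSeq starts themselves coverage was mixed. Of the 14 windows, 2 held a peak in all 4 libraries (14.3%, against 20.9% of 32619 RefSeq windows) and 8 held none in any (57.1%, against 56.2%). The Zfhx3 window was covered over all 300 bases in every library. All 5 Zbtb18 windows, the Tshz3 window, the Zbtb20 window and 1 of the 4 Zeb2 windows (45110228 to 45110527) held no peak in any library. The nearest peak to the first Zbtb18 start was 828 to 1376 bp away. To the RefSeq start of Zbtb20 it was 11115 to 11315 bp away. That start (43247284) lies well inside the gene, whose span begins at 42875689. Segment 1 of Zbtb20, at the 5′ end of the span, was 8.75% covered on average. Peaks flanked the starts more than they covered them: from 1 to 5 kb upstream the 7 genes averaged 34.5 to 51.6% over the 4 libraries, against 8.12 to 11.8% for all genes, and from 1 to 5 kb downstream 39.3 to 51.5% against 12.4 to 17.8%. Within 500 bp of the start they averaged 25.3 to 46.1%, against 22.8 to 34.8%. The gap was small in cKO replicate 2, with 46.1% within 500 bp, 51.6% upstream and 49.7% downstream. Some starts, among them those of Zbtb20 and Zfhx3, lie inside the gene span, so part of the upstream distance is gene body.

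**Figure D3:**
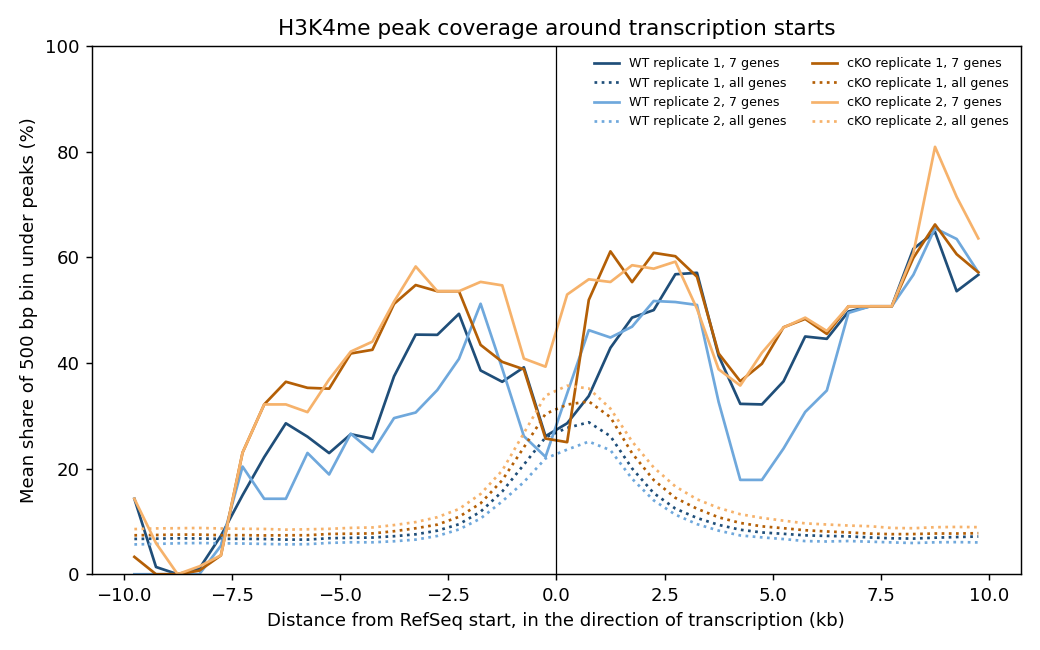
Mean share of each 500 bp bin under H3K4me peaks (%, vertical axis) by distance from the RefSeq start (kb, in the direction of transcription), for the 7 genes with a start (solid lines) and all genes (dotted), 1 line per library. The dotted lines are highest just downstream of the start. The solid lines average 25.3 to 46.1% within 500 bp of it, lowest in cKO replicate 1. The line of cKO replicate 2 is not low there, with 52.9% in the first 500 bp downstream.

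The letters CACCTG and their reverse complement CAGGTG, bound by ZEB proteins, were searched on both strands. None of the 14 windows held them, against 20.3% of all windows, so none of the 4 Zeb2 windows did either. CATCTG or CAGATG was in 5 of 14 windows, all of them Zbtb18's own, some of which overlap, against 17.1% of all windows. A match is a description of letters, not a binding site. The first Zbtb18 window was 81.7% G and C with 51 CpG dinucleotides, the Zfhx3 window 67.3% with 21 and the first Zeb2 window 49.3% with 9. The windows of all genes had a median of 53% and 7.

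Around its starts Zeb2 was more covered in both cKO libraries than in both WT libraries, a feature singled out after its values were seen. In the first printed Zeb2 window, 10 and 164 of the 300 bases lay under a peak in WT and all 300 in both cKO libraries. In the second, the counts were 102 and 0 in WT and 300 and 300 in cKO. The capitals above show where the WT peaks stopped. Over the 5 kb centred on the first start, 34.8 and 39.3% was covered in WT and 68.6 and 70.9% in cKO, a difference of 32.7 points. At the other 3 Zeb2 starts it was 43.0, 43.0 and 38.0 points, in windows that overlap one another. The median over 20413 starts with a peak was 6.42 points, and 4.21, 1.09, 1.10 and 2.23% of starts had a difference as large as these 4. With each list cut to equal covered length or to an equal number of peaks the first-start values were the same, and with only peaks at a −log10 q of at least 3 the difference was 39.7 points.

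The 5 kb around the starts of other members moved less. Over all 13 starts with a peak nearby, both cKO libraries were above both WT libraries at 11 (all starts: 41%) and below them at 1, that of Tshz2 (3.04%). The starts are not independent, since 4 belong to Zeb2 and 5 to Zbtb18. At Tshz2 the 5 kb were 52.6 and 51.3% covered in WT and 38.5 and 49.6% in cKO, although its whole locus had more covered bases in cKO. At Zfhx2 they were 72.1 and 64.8% covered in WT and 73.1 and 100% in cKO. Tshz3 overlapped between genotypes, at 43.9 and 64.2% against 49.0 and 61.2%.

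No member differed between genotypes past the threshold. The test was limma on log2(covered bases + 500), centred on each library's median and adjusted by Benjamini-Hochberg over 14941 loci, with differences given as cKO minus WT. It called 0 of the 10 members, and 0% of all loci in either direction. At an unadjusted p under 0.05 it held 5.56% of loci higher and 4.44% lower in cKO, and 1 member, Zbtb20. An exact permutation test of 2 libraries against 2 cannot give a p below 0.333.

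Counted in bases, 7 members were higher in both cKO libraries than in both WT libraries, all but Zfhx4, Tshz1 and Zbtb20, against 59.8% of all loci. None was lower without overlap (all loci: 1.22%). After centring, 5 members were lower in both cKO libraries than in both WT libraries (Zfhx2, Zfhx3, Tshz1, Zbtb18 and Zbtb20; all loci: 27.2%) and none higher (17.3%). Uncentred and centred values thus gave opposite signs for most members. For Zfhx2 the negative sign after centring was fixed by its high coverage in WT, since full coverage in cKO would still give −0.026. Summed over the 10 loci, peaks covered 439 and 399 kb in WT, against 476 and 535 kb in cKO, a ratio of 1.21, where all loci gave 1.29. With each list cut to equal covered length (113.9 Mb in every library) the ratio in the 10 loci was 1.05.

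By gene, 8 of the 10 centred differences were negative, against 55% of all loci, with a median of −0.14. The 8 include Zfhx2, whose centred difference could not be positive given its coverage in WT. With cyclic loess scaling 5 of 10 were negative, with lists of equal covered length 4, and without centring 0, so the direction for the group rests on the scaling. Zbtb20 had the largest difference: its centred log2 values were 4.21 and 4.32 in WT and 3.95 and 3.96 in cKO. Its difference was −0.31 ± 0.072 (SE; limma adjusted p = 0.407), and by p it ranked 98th among 14941 loci. Without centring it was 0.077, and with only peaks at a −log10 q of at least 3 it was −0.0013.

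Zbtb18 differed by −0.25 ± 0.15 (SE; limma adjusted p = 0.573), but by 0.30 when the flanks were left out. Zfhx2 differed by −0.20 ± 0.090 (limma adjusted p = 0.503). Its locus was near its limit: full coverage in both cKO libraries would still give −0.026. Zfhx4 (−0.21 ± 0.14) and Tshz1 (−0.21 ± 0.11) had differences of the same size, with limma adjusted p of 0.599 and 0.542. Both turned on single libraries: Zfhx4 was −0.41 without cKO replicate 1 and −0.028 without cKO replicate 2, and Tshz1 −0.099 and −0.33. Zfhx3 stood at −0.071 ± 0.071, with a limma adjusted p of 0.726.

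The remaining 4 lay near 0 after centring. Zeb2 differed by −0.0060 ± 0.080, Zeb1 by −0.017 ± 0.16, Tshz3 by 0.018 ± 0.10 and Tshz2 by 0.066 ± 0.089, with limma adjusted p between 0.797 and 0.981. Without centring these 4 had the highest values of the 10, from 0.37 (Zeb1) to 0.45 (Tshz2). At Zeb2 that difference was 0.38 ± 0.11, with a limma adjusted p of 0.177. With lists of equal covered length and centring kept, the Zeb2 difference was 0.33 ± 0.070, with a limma adjusted p of 0.496. That value compares with the centred −0.0060, not with the uncentred 0.38.

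**Figure D4:**
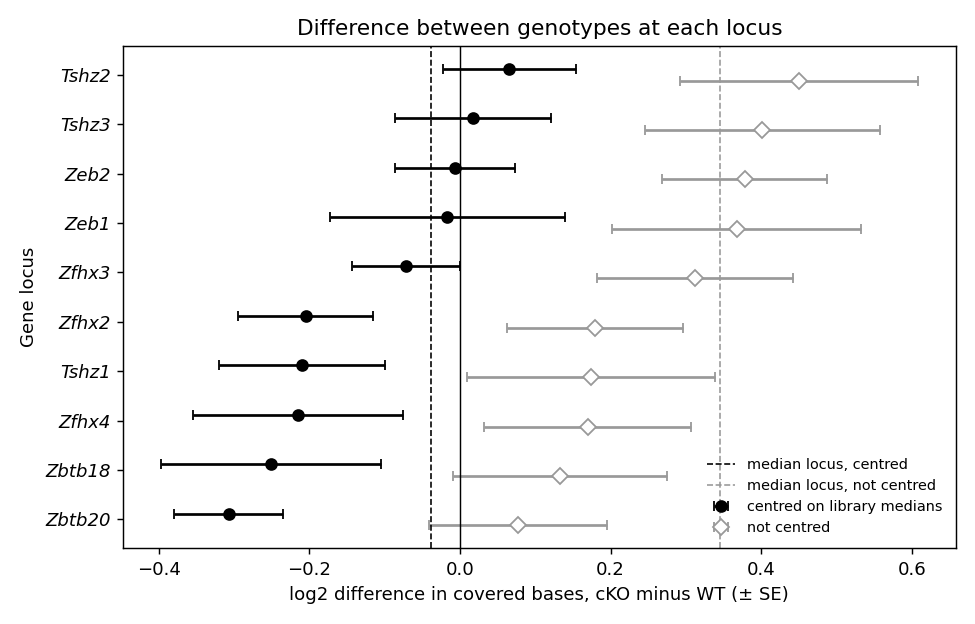
Log2 difference in covered bases between genotypes (cKO minus WT, ± SE of the limma fit) at each locus, centred on library medians (filled circles) and not centred (open diamonds); dashed lines mark the median locus at −0.038 and 0.35. Centred values run from −0.31 at Zbtb20 to 0.066 at Tshz2, and all 10 uncentred values are above 0.

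Regions of 1 genotype only were defined strictly. A cKO-only region is a stretch of at least 200 bp over which peaks of both cKO libraries overlap and no base of which lies under a WT peak; a WT-only region is the reverse. Stretches by which cKO peaks extend or bridge peaks that WT shares are therefore not counted. By that rule the loci held 13 cKO-only regions, at Tshz2 (6), Zfhx3 (3), Zbtb20 (3) and Zeb2 (1), all inside the genes. Of all tested loci, 18.6% held at least 1, a share not matched for locus length. Tshz2, Zfhx3 and Zbtb20 have the longest of the 10 loci (460, 702 and 779 kb). The longest of the 13 was 1145 bp in Zfhx3 (108372873 to 108374017), with a fold enrichment of 3.22 and 3.39 in the cKO libraries. Zfhx3 also held regions of 933 bp (108314535 to 108315467) and 635 bp (108859723 to 108860357). The Zeb2 region was 605 bp (45028027 to 45028631). In Tshz2 they measured 356 to 658 bp, the longest at 170017469 to 170018126, and in Zbtb20 276 to 749 bp, the longest at 43367985 to 43368733.

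By the same rule 1 WT-only region was found, of 416 bp in Zfhx4 (5251540 to 5251955; fold enrichment 4.21 and 3.87 in the WT libraries), where 2.18% of all tested loci held one. With lists cut to equal covered length there were 2 cKO-only and 12 WT-only regions in the 10 loci, so the balance between them changed with the lengths of the lists. Bases covered in both cKO and neither WT library, extensions of shared peaks included, were more than these regions hold. They came to 9.57 kb at Zeb2, where the 1 region holds 0.605 kb, to 7.82 kb at Zfhx3 (2.71 kb in regions) and to 6.63 kb at Tshz2 (3.04 kb). Zbtb20 had 4.23 kb (1.34 kb in regions). Zfhx4 had 3.495 kb and Zfhx2 3.44 kb, with no cKO-only region at either. Bases covered in both WT and neither cKO library were most at Zbtb20 (2.56 kb) and Zfhx4 (1.82 kb), and 0 at Zfhx2, Zeb1, Zeb2 and Zbtb18. At Zbtb20 and Zfhx4 they were still fewer than the bases covered in both cKO and neither WT library.

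Lists of related genes gave no call either. Their counts above and below 0 turn on centring, as for all loci, of which 55% were below 0 with it and 92.2% above 0 without it. Of 42 other ZBTB loci tested, 15 differences were above 0 and 27 below, 0 passed the limma test and the median was −0.11; without centring 41 were above 0 (median 0.27). The largest in size was Zbtb39, with 0.764 and 1.07 kb under peaks in WT, against 3.40 and 4.95 kb in cKO (1.32 ± 0.32, limma adjusted p = 0.407), followed by Zbtb21 (0.98) and Zbtb8a (0.87). Of 6 other zinc-finger homeobox and related loci, 2 were above 0, 4 below and 0 passed, with a median of −0.18; without centring 5 were above 0 (median 0.20). Homez had 1.64, Zhx1 −0.41 and Zhx3 −0.36. Among 16 ZEB partners and corepressors, 6 were above 0, 10 below and 0 passed (median −0.081); without centring all 16 were above 0 (median 0.30). Rcor1, a scaffold of the corepressor complex with a histone H3 lysine 4 demethylase, had 0.75, the deacetylase Hdac1 0.60 and the histone-binding Rbbp7 0.43.

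Known targets of these factors were described in the same way. Epithelial genes that ZEB proteins repress had a median of 7.85% of the locus covered, beside 5.79% for all loci, and Cldn4 held no peak in any library. Of 14 tested, 2 differences were above 0, 12 below and 0 passed (median −0.21). Without centring 12 of the 14 were above 0 (median 0.17). The E-cadherin gene Cdh1 had −0.49, the splicing regulator Esrp2 −0.47 and the P-cadherin gene Cdh3 0.39. Genes downstream of ZBTB18 or ZEB2 in the cortex were covered over a median of 38.3% of the locus. After centring all 10 differences were below 0 (median −0.27), with 0 passing. Of all loci 55% were below 0, a share not matched for coverage. Id4, an inhibitor of differentiation, had −0.58, the proneural Neurod1 −0.46 and the growth factor gene Ntf3 −0.35. Without centring 8 of the 10 were above 0 (median 0.11), and these 3 stood at −0.19, −0.080 and 0.036.

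**Figure D5:**
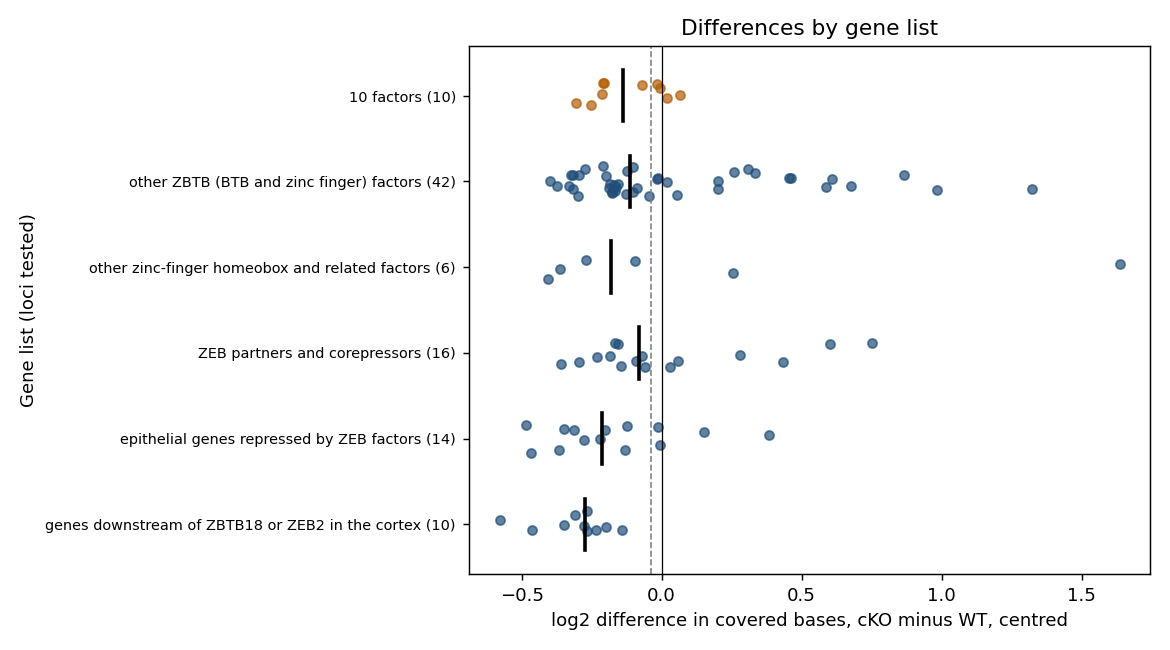
Log2 difference in covered bases (cKO minus WT, centred; horizontal axis) of each tested locus in the 10 factors and 5 related lists; points are genes, thick bars list medians, and the dashed line the median of all loci at −0.038. Medians run from −0.081 (ZEB partners) to −0.27 (genes downstream of ZBTB18 or ZEB2), and no point passed the limma test; without centring most points of each related list lie above 0.

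Cell type markers were set beside these values. Summed over their loci, interneuron and ventral markers had 25.1 and 25.7 kb under peaks in WT, against 32.0 and 35.8 kb in cKO, with 3 differences above 0 and 2 below after centring and all 5 above 0 without it. Meningeal markers had 19.5 and 16.5 kb in WT against 20.1 and 21.8 kb in cKO, microglial markers 8.73 and 8.50 against 7.83 and 8.76 kb, endothelial and pericyte markers 27.5 and 22.1 against 28.7 and 35.1 kb, and red blood cell markers 6.07 and 5.69 against 8.33 and 8.69 kb. The red cell gene Alas2 held no peak in any library. Of the cortical markers, Pax6 had −0.32 after centring, Eomes −0.27 and Emx1 −0.26, and without centring 0.060, 0.11 and 0.12. None of these markers passed the limma test, and the part of cell type makeup in the values of the 10 loci was not tested.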

How the data were processed

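Each H3K4me ChIP library had 1 broad peak list, and the matching inputs were not analysed here. The tools named in the submitters' processing notes are MACS2 2.1.1, Bowtie2 2.2.8, cutadapt and FastQC, on mm10, with options not given in the sources used here. For each peak the authors deposited a score, a fold enrichment (a ratio to the caller's background), and the p-value and q-value as −log10. Fold and q describe or filter peaks within a list; the score was not used. Without read counts the depth is unknown, no counting interval was computed, and a library with more reads yields more and wider peaks.

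Peaks on chromosomes 1 to 19 and X were laid over RefSeq gene spans (GRCm38.p6) plus 10 kb on either side, in Python 3.11.15 (pandas 2.3.3, numpy 2.4.6). Covered bases were converted to log2(bases + 500), which understates differences at thinly covered loci. A locus needed a mean of at least 1000 covered bases, and libraries were centred on their medians. The genotype test was limma (version 3.58.1, R 4.3.3) with a trended eBayes, no block, Benjamini-Hochberg adjustment and a threshold of 0.05. Many loci overlap and share peaks. The code was tested on simulated data.

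Members and lists were chosen with earlier results of these data known. The genes named are the 10 members, their widest shared, highest-fold and genotype-only regions, and the 3 largest differences of each of 5 lists and of the cortical markers. Alternatives were the peak threshold, lists of equal number or length, scaling, flank, pseudocount, filter, region size, a replicate block and leaving out each library. The summary of the cortical marker list is not reported here. Exons were not analysed here.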

Additional observations from a re-analysis of the deposited data

How the results depend on the processing

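The number of loci called, 0 with the settings reported, stayed 0 in 12 of 15 alternatives. Without the filter on thin coverage it was 327 (183 higher and 144 lower in cKO), and leaving out each library gave 0 to 98: 98 without WT replicate 1, 8 without WT replicate 2. No member was called under any alternative, with Zbtb20 coming closest (limma adjusted p between 0.0651 and 0.999 over its alternatives). The libraries' numbers were not shown to pair them (correlation of deviations −0.0962); with the replicate number as a block, 0 loci were called. In the member loci the cKO to WT ratio of covered bases (1.21) was 1.38 with stricter peaks and 1.05 at equal covered length, and 1.14 to 1.28 leaving out each library. The surplus of 19.5 peaks in cKO was 31.5 with stricter peaks, −8.5 at equal number and −41.5 at equal length, and 13 to 26 leaving out each library. cKO-only regions (13) numbered 7 at equal number, 2 at equal length and 8 at a minimum of 500 bp. WT-only regions (1) numbered 0 with stricter peaks, 6 at equal number, 12 at equal length, 2 at a minimum of 1 bp and 0 at 500 bp.

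Signs of member differences changed as follows. Without centring all 8 negative values became positive: Zfhx2 0.18, Zfhx3 0.31, Zfhx4 0.17, Zeb1 0.37, Zeb2 0.38, Tshz1 0.17, Zbtb18 0.13 and Zbtb20 0.077. At equal covered length Zfhx2 was 0.15, Zeb2 0.33, Tshz1 0.027 and Zbtb18 0.037, and at equal number Zeb2 was 0.047. With loess scaling Zfhx3 was 0.0099, Zeb1 0.054 and Zeb2 0.075, and with a pseudocount of 2000 they were 0.010, 0.022 and 0.074. With stricter peaks Zeb1 was 1.18 and Tshz3 −0.13. Without flanks Zeb1 was 0.0019, Zeb2 0.035 and Zbtb18 0.30. Tshz3 was also −0.022 with 25 kb flanks, −0.011 with a pseudocount of 100 and −0.047 without the filter. Leaving out each library, Zfhx2 ran from −0.26 to −0.15, Zfhx3 from −0.11 to −0.040 (−0.040 without WT replicate 2, −0.042 without cKO replicate 1, −0.11 without cKO replicate 2), Zfhx4 from −0.41 to −0.028, Tshz1 from −0.33 to −0.099, Zbtb18 from −0.35 to −0.16 (−0.16 without cKO replicate 2), Zbtb20 from −0.36 to −0.25, Zeb1 from −0.13 to 0.096, Zeb2 from −0.063 to 0.051, Tshz2 from −0.025 to 0.15 and Tshz3 from −0.063 to 0.099. The causes were not tested. Only 2 libraries per genotype and an unknown depth limit the precision of every difference.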

Other observations

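The miR-200 family silences Zeb1 and Zeb2 and is in turn repressed by them in epithelia. Its 5 genes were looked at after the lists had been seen, because they are the best-known upstream regulators of the ZEB pair. The mature 3p strands, from RefSeq, are shown with the seed (bases 2 to 8) in capitals, which falls into 2 forms.
mmu-miR-200b-3p: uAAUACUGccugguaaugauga
mmu-miR-200c-3p: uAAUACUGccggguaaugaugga
mmu-miR-429-3p: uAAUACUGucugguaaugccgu
mmu-miR-200a-3p: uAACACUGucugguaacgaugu
mmu-miR-141-3p: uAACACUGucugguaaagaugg
The cluster of Mir429, Mir200a and Mir200b (chromosome 4, 156053905 to 156055750) held no H3K4me peak within 10 kb in any library. The 20.1 kb windows around Mir141 and Mir200c (chromosome 6, 124717914 to 124718390) had 3.03 and 2.72 kb under peaks in WT and 3.44 and 4.18 kb in cKO, with no peak base on either hairpin. Both windows also reach other genes, so these peaks cannot be assigned to the miRNAs.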
